A study of Mus musculus with 6 samples.

Results

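C1q-negative monocytes and inflammatory macrophages of the mouse colon are barcodes chosen by their UMIs (unique molecules) of a few genes: they had at least 5 UMIs of the lysozyme gene Lyz2 and at least 1 UMI of Csf1r, Fn1, Ly6c2 or Plac8. They also held at most 1 UMI of the complement genes C1qa, C1qb and C1qc together, none of the neutrophil gene Retnlg, none of the dendritic cell gene Flt3, none of the T cell genes Cd3d, Cd3e and Cd3g, and at most 1 of the plasma cell gene Mzb1. The rule found 826 cells among 40523 barcodes, of which 31304 are called passing barcodes below because they showed 200 or more genes with no more than 10% of UMIs from mitochondrial genes. The study sorted CD45-positive colon cells of wild type mice in 2 arms and made 1 droplet single-cell library from each of 6 groups. Specific pathogen free (SPF) mice were untreated at day 0 or had received dextran sodium sulfate (DSS), which damages the lining of the colon, for 2 or 7 days. Pseudo germ-free (pGF) mice had received antibiotics for 4 weeks at day 0, and at days 2 and 7 had then received antibiotics and DSS together for that time. All groups thus had wild type mice in common and every pGF group had antibiotics; the agents, and the number, age and sex of the mice, were not given in the sources used here. With 1 library per group there was no replicate check, no test was possible, and every difference below compares libraries and not conditions.

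Monocytes carrying Ly6c2 and Ccr2 enter the gut wall from blood and in the healthy colon mature into resident macrophages, gaining MHC class II, Cx3cr1 and C1q genes. In an injured colon many of them instead take on an inflammatory state, with interleukin-1, neutrophil-attracting chemokines and nitric oxide synthase. Monocytes, early macrophages and monocyte-derived or conventional dendritic cells can all be C1q-negative, and the rule does not place a cell on that path.

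Days 0, 2 and 7 had 2359, 2997 and 10633 passing barcodes in the SPF arm and 1280, 7488 and 6547 in the pGF arm, and values below follow that order. C1q-negative cells numbered 29, 85 and 619 in SPF and 14, 15 and 64 in pGF, so 619 of the 826 came from 1 library. Their median depth was 8563, 4122 and 7268 UMIs in SPF and 7727.5, 4034 and 3240.5 UMIs in pGF, and their UMIs summed to 260630, 386346, 4546314, 129434, 146790 and 263603 in the same order. Levels are given as CPM, a gene's UMIs scaled by the total UMIs of these cells in that library (the usual CPM scale, the same for every library). Differences are log2 ratios of (CPM + 10), and the added 10 makes differences of low genes look smaller than they are. Intervals of shares are exact 95% intervals (Clopper-Pearson) and intervals of ratios are exact 95% intervals for 2 Poisson counts; both cover counting error only. No member barcode was a member in 2 libraries, although 37 of the 826 barcode sequences also occurred in another library, as did 870 of 39642 barcode sequences in all.

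The label was chosen with earlier results of these data known, so the levels of its genes are a description and do not check it. Saa3, an acute-phase protein and 1 of the 5 genes that mark these cells in the label, had 82051 UMIs in SPF at day 7, 20 in pGF at day 7 and 0 in both libraries of day 0 and both of day 2. Chil3, a secreted chitinase-like protein of monocytes, was at 169, 562 and 5453 CPM in SPF and at 15.5, 47.7 and 505 CPM in pGF. Fn1, Plac8 and Lyz2, the other genes of the label, are part of the rule and do not check it either. The cells of both day 0 libraries carried MHC class II genes at high levels: at least 5 UMIs of H2-Aa were present in 25 of 29 SPF and 13 of 14 pGF cells at day 0, against 87 of 619 SPF cells at day 7. Of the markers of other cell types, some were fixed at 0 by the rule (Flt3, Cd3d, Cd3e and Cd3g). T cells here are passing barcodes with at least 2 UMIs of the Cd3 genes and none of Lyz2. The 10 T or NK cell markers summed to at most 20.4 CPM in any library, against 8376 to 20233 CPM in T cells. Both choices of cells use the Cd3 genes, so part of that gap was fixed in advance. Among dendritic cell genes that the rule did not use, Siglech was at 0 in all 6 libraries and Zbtb46 in all SPF libraries. Zbtb46 was detected in pGF at days 0 and 7, and Xcr1 in SPF at days 2 and 7 and pGF at day 0. Clec9a was detected in SPF at day 2 and pGF at days 0 and 7, and Cd209a and Irf8 in every library. The 8 dendritic cell markers summed to 457, 409 and 95.2 CPM in SPF and 757, 184 and 345 CPM in pGF. At day 0 that was above the 106 CPM (SPF) and 91.6 CPM (pGF) of the remaining passing barcodes. Cells that met the rule but for at least 2 C1q UMIs held 417 CPM (SPF) and 380 CPM (pGF) at day 0. Remaining barcodes were also lower in SPF at day 2 (152 CPM) and pGF at days 2 and 7 (145 and 284 CPM), but higher in SPF at day 7 (174 CPM). Whether the day 0 cells include dendritic cells was not tested.

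Several libraries held signs of other cells. The 13 neutrophil markers summed to 6915 CPM in C1q-negative cells of SPF at day 7, where 12 were detected and Retnlg was at 0 by the rule, against 284259 CPM in Retnlg-positive barcodes (at least 3 UMIs) and 3851 CPM in T cells of that library. In the other 5 libraries they summed to between 40.9 and 194 CPM. The 4 haemoglobin genes summed to 6353 CPM in SPF at day 7 and to at most 31.1 CPM elsewhere. The 7 epithelial markers summed to 8216 CPM in pGF at day 2, because 2 of its 15 barcodes, with 40898 and 40811 UMIs, held 98.3% of those UMIs and 55.7% of all UMIs of the 15. SPF at day 2 held 748 CPM of them and the other 4 libraries at most 21.6 CPM. Barcodes over the mitochondrial limit were 61.1% of SPF at day 2 and 6.41% to 28.1% of the other libraries.

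C1q-negative cells made up a larger share of SPF than of pGF cells at days 2 and 7, and their share was higher with each later day in SPF and not in pGF. They were 1.23% (0.825 to 1.76) of passing barcodes in SPF at day 0, 2.84% (2.27 to 3.50) at day 2 and 5.82% (5.38 to 6.28) at day 7. In pGF they were 1.09% (0.599 to 1.83), 0.200% (0.112 to 0.330) and 0.978% (0.754 to 1.25). The day 0 intervals overlapped and those of days 2 and 7 did not. The pGF share was below the SPF share by a log2 ratio of -3.82 (-4.72 to -3.02) at day 2 and of -2.57 (-2.97 to -2.20) at day 7, which is 14.2-fold and 5.96-fold lower. Over barcodes with a UMI of Ptprc, the gene of CD45, the day 2 shares were 5.46% in SPF and 0.180% in pGF, a log2 ratio of -4.92. Without barcodes at or above 1% S100a8 and S100a9 UMIs the day 7 shares were 8.80% and 0.988%. At day 0 the log2 ratio was -0.17 (-1.20 to 0.80). Within SPF the share at day 7 exceeded that at day 0 by 2.24 (1.71 to 2.83) and that at day 2 by 1.04 (0.71 to 1.38) on the log2 scale. A share of barcodes also depends on how many other cells a library holds. Without barcodes holding 3 or more epithelial UMIs the day 2 shares were 3.84% in SPF (75 cells) and 0.164% in pGF (9 cells).

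The balance between C1q-negative and C1q-positive cells does not depend on lymphocytes. The C1q-positive cells met the same rule but for at least 2 UMIs of the C1q genes, and numbered 206, 131 and 235 in SPF and 110, 51 and 103 in pGF. C1q-negative cells were 12.3% (8.42 to 17.2), 39.4% (32.8 to 46.2) and 72.5% (69.4 to 75.5) of both kinds together in SPF. In pGF they were 11.3% (6.31 to 18.2), 22.7% (13.3 to 34.7) and 38.3% (30.9 to 46.2). The share was thus higher at each later day in both arms, with a day 7 interval in pGF that lay below that of SPF. The intervals of the arms overlapped at day 0 and at day 2, and in pGF those of each day and the next overlapped.

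**Figure D1:**
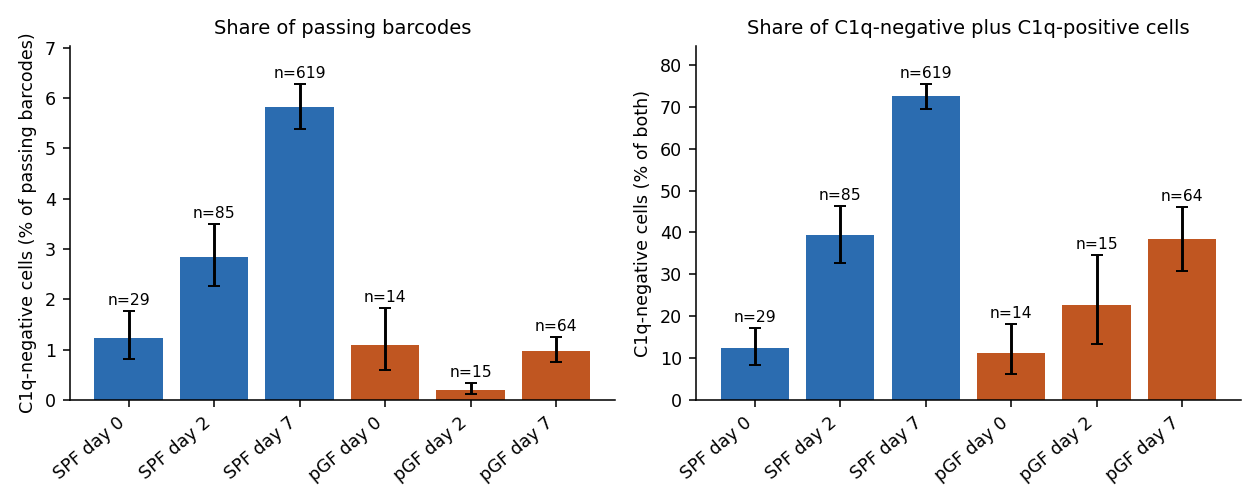
C1q-negative cells in each of 6 libraries as a percentage of passing barcodes (left) and of C1q-negative plus C1q-positive cells (right); bars are shares, whiskers exact 95% intervals and n the number of C1q-negative cells. Left, SPF goes from 1.23% to 5.82% and pGF stays at or below 1.09%; right, both arms are higher at each later day, to 72.5% in SPF and 38.3% in pGF.

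The cells at the edges of the rule are given once, for SPF at day 7. In that library 585 cells had no C1q UMI and 34 had 1, with Saa3 at 18450 and 10301 CPM. The 19 cells just outside, with 2 C1q UMIs, had Saa3 at 16230 CPM. Cells with 5 Lyz2 UMIs (28) had Saa3 at 24261 CPM and those just outside with 4 (29) had 31626 CPM. A further 162 barcodes were outside for 1 or 2 UMIs of Retnlg alone, and these had Saa3 at 20820 CPM, Cxcl2 at 23310 CPM and S100a8 at 2307 CPM.

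Genes were compared between libraries with at least 30 of these cells, which left SPF at day 2, SPF at day 7 and pGF at day 7. A gene was compared if the library with more of it reached 50 CPM and 20 UMIs, and was counted as higher or lower if the ratio of (CPM + 10) was past 2-fold. Genes of the rule itself were left out of every fold. Among 2384 genes compared at day 7, 263 were higher in pGF (11% of those compared) and 250 lower (10.5%), with a median log2 difference of 0.15 over all genes. Among 3265 genes compared between day 7 and day 2 in SPF, 306 were higher at day 7 (9.37%) and 739 lower (22.6%), with a median of -0.42. Every list count below is to be read beside these shares over all genes. Scaling by TMM moved the median of the same genes to -0.35 and the counts to 90 higher and 542 lower for pGF against SPF at day 7, and to 0.29, with 812 higher and 187 lower, for SPF day 7 against day 2. TMM shifts every gene of a comparison by about the same amount. The 2 comparisons share the SPF day 7 library, so each comparison's values are given side by side and no overlap between them is counted.

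**Figure D2:**
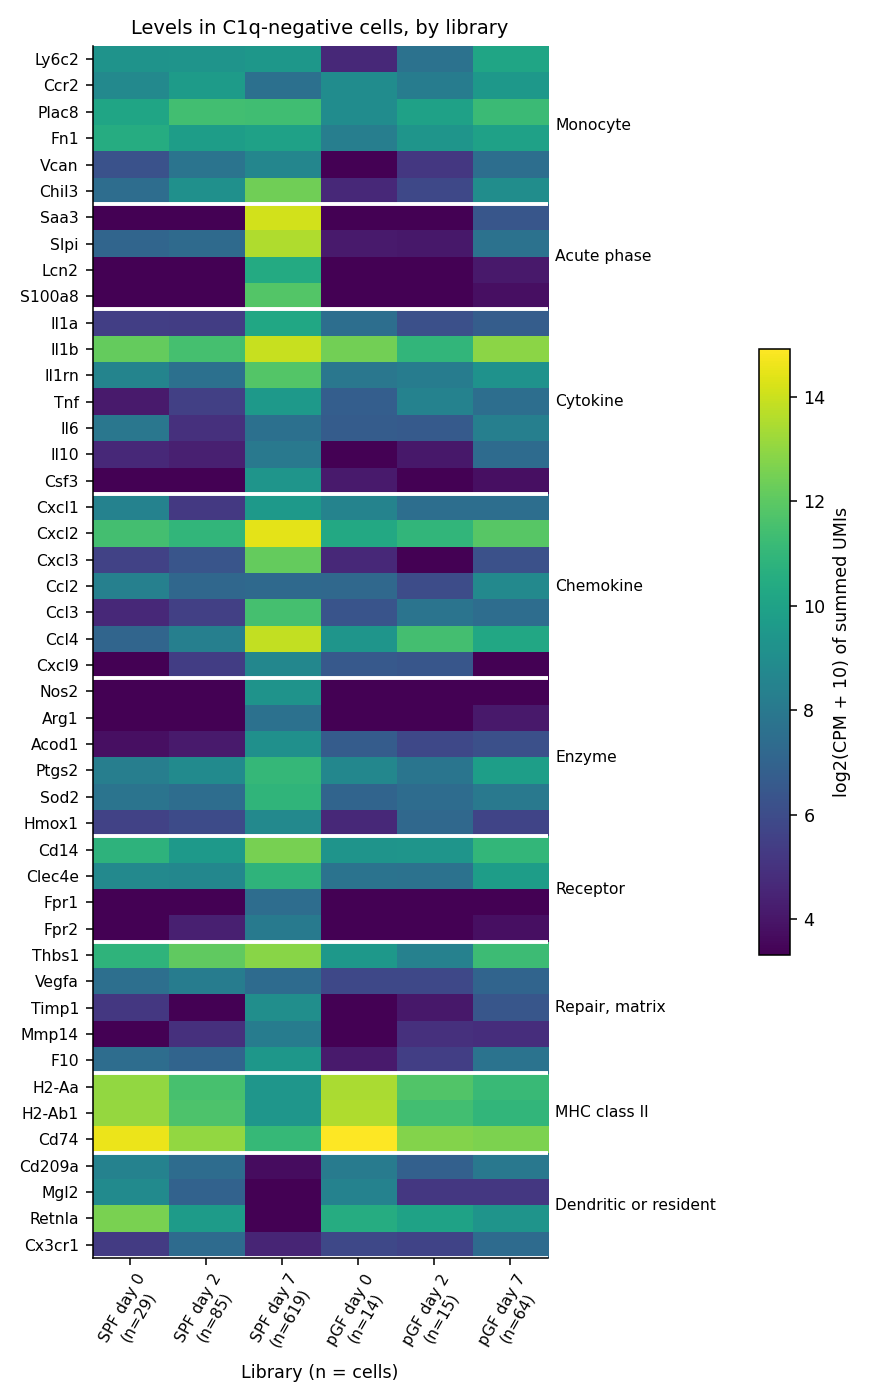
Levels of selected genes, by role, in C1q-negative cells of the 6 libraries, as log2 of (CPM + 10) of summed UMIs; n is the number of cells. The SPF day 7 column stands apart with high acute-phase, cytokine, chemokine and enzyme genes and low MHC class II genes, and Saa3 and Nos2 are at the floor in both day 0 and both day 2 libraries.

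Acute-phase and alarmin genes had the medians furthest from 0 of the 24 gene lists in both comparisons; the 4 haemoglobin genes, a marker list of red cells, were further still. Of 9 compared, all 9 were higher in SPF at day 7 than at day 2 (median log2 6.19) and 8 were lower in pGF than in SPF at day 7 (median -5.84). Saa3, a serum amyloid A protein made at sites of infection, was at 0, 0 and 18048 CPM in SPF and at 0, 0 and 75.9 CPM in pGF. One library was thus high, 1 was low but above 0, and 4 held no UMI. The 20 Saa3 UMIs of pGF at day 7 lay in 3 cells, and its log2 difference from SPF was -7.72. In SPF the day 7 level was at least 2324-fold that of day 2, counting day 2 at a floor of 3 UMIs over the group. Slpi, an inhibitor of neutrophil proteases, was at 127, 153 and 11855 CPM in SPF and 7.73, 6.81 and 197 CPM in pGF, so that SPF at day 7 again lay above the other 5 libraries. Lcn2, which binds bacterial iron carriers, was at 1329 CPM in SPF at day 7, at 7.59 CPM in pGF at day 7 and at 0 in the other libraries.

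Lcn2, S100a8 and S100a9 are on the neutrophil marker list too. The alarmins S100a8 and S100a9 are made by neutrophils as well as monocytes, and T cells of the SPF day 7 library held UMIs of both. S100a8 was at 3633 CPM and S100a9 at 1040 CPM in SPF at day 7, and both were at 0 at days 0 and 2 and at 3.79 CPM in pGF at day 7. In T cells of the SPF day 7 library S100a8 was at 1648 CPM and S100a9 at 1518 CPM, so that S100a9 in C1q-negative cells was below the T cell level and S100a8 above it. After each cell was thinned to 1000 UMIs, S100a8 was found in 39.5% of C1q-negative cells and 27.0% of T cells, and S100a9 in 20.2% and 27.6%. The rule left barcodes with a Retnlg UMI out of the C1q-negative cells, while the T cells had no such limit. The 2 levels therefore do not settle a background, and the part of neutrophil RNA in S100a8 and S100a9 was not tested. Saa3 was far above the T cell level. It was found in 68.0% (64.2 to 71.7) of thinned C1q-negative cells and 8.97% of T cells. Without thinning it was in 79.2% and 23.9%, at median depths of 7268 and 3189 UMIs. T cells had to hold no Lyz2 UMI and C1q-negative cells at least 5, and the part of that choice in this difference was not tested.

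The regulatory sequence upstream of the genes furthest lower in pGF is shown for 3 of them whose windows hold a motif of the inflammatory factors C/EBP or NF-kB. Each is the 250 bases before the RefSeq start on GRCm38.p6, 5′ to 3′ along the gene, and capitals mark matches on either strand to TTGCNNAA (C/EBP) or to GGGA, any base and TTTCC (NF-kB).
Saa3 (chr7:46715677-46715926, minus strand): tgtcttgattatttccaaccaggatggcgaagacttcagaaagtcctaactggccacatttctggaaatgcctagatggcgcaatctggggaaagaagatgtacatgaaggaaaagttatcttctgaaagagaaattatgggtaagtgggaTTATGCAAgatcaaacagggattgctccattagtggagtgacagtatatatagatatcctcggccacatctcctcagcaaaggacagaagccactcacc
Slpi (chr2:164356508-164356757, minus strand): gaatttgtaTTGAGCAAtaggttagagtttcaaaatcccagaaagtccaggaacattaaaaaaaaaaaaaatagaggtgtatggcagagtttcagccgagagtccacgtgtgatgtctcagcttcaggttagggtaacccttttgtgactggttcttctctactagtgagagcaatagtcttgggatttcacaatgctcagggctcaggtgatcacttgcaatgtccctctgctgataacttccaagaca
Cxcl3 (chr5:90785851-90786100, plus strand): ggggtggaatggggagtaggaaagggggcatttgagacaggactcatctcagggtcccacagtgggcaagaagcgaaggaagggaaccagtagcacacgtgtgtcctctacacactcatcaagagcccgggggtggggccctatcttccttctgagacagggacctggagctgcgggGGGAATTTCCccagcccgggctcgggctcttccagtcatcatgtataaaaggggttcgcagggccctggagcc
The capitals in Saa3 and Slpi mark the C/EBP letters and those in Cxcl3 the NF-kB letters. Over windows of 300 bases, which run 50 bases past the start, the C/EBP letters occur in 10.8% and the NF-kB letters in 0.411% of all 32851 RefSeq mouse promoters in the table. Also searched were TGANTCA (AP-1, 7.81% of all promoters), TATAAA (13.6%) and an interferon-response-like motif (3.44%). Of the 10 genes furthest lower in pGF, 8 had a window: 3 held the C/EBP letters, 1 the NF-kB, 1 the AP-1, 4 the TATA and 1 the interferon-response-like letters. Of the 10 furthest higher, 8 had a window: 2 held the C/EBP, 2 the TATA and 0 the other letters. The windows of Saa3 and Slpi held no NF-kB match and that of Cxcl3 no C/EBP match, so those 2 motifs overlapped in none of them. A match describes these letters and does not show that a factor binds there.

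Cytokine genes are next by role. Of 11 compared, 7 were lower in pGF than in SPF at day 7 (median -1.31) and none higher, and 9 were higher in SPF at day 7 than at day 2 (median 2.68) and none lower. Il1b, the secreted interleukin that drives fever and neutrophil entry, was at 4608, 2845 and 15513 CPM in SPF and 5648, 1976 and 7690 CPM in pGF. It was thus abundant in every library, with the highest level in SPF at day 7, and was lower in pGF at day 7 by a log2 difference of -1.01, close to the 2-fold limit. Il1a, its membrane-held relative, was at 34.5, 33.6 and 1177 CPM in SPF and 170, 61.3 and 98.6 CPM in pGF. Il1rn, the natural blocker of both, was at 368, 186 and 3573 CPM in SPF and 232, 279 and 596 CPM in pGF, so that agonists and antagonist were both highest in SPF at day 7. Tnf was at 7.67, 36.2 and 730 CPM in SPF and 100, 347 and 175 CPM in pGF. Csf3, which encodes the neutrophil growth factor G-CSF, had 2924 UMIs in 237 cells of SPF at day 7 (643 CPM), 1 UMI in pGF at day 7 and 0 UMIs in SPF at days 0 and 2.

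Il6 did not follow the same order, being highest in pGF at day 7, while Il10 was highest in SPF at day 7. Both were within 2-fold between the arms at day 7. The cytokine Il6 was at 234, 20.7 and 187 CPM in SPF and 92.7, 88.6 and 315 CPM in pGF, with a log2 difference of 0.72 between pGF and SPF at day 7. The anti-inflammatory cytokine Il10 was at 15.3, 10.4 and 245 CPM in SPF and 0, 6.81 and 156 CPM in pGF, a difference of -0.63 at day 7, and in pGF its UMIs lay in 4 of 64 cells. Osm, a cytokine that acts on stromal cells, was at 364 CPM in SPF and 338 CPM in pGF at day 7.

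Chemokines that attract neutrophils through the receptor CXCR2 were led by Cxcl2. It was at 2755, 1957 and 22320 CPM in SPF and 1275, 1982 and 3877 CPM in pGF. SPF at day 7 was highest, and pGF at day 7 lay above the other 4. Cxcl3 was at 38.4, 72.5 and 4686 CPM in SPF and 15.5, 0 and 64.5 CPM in pGF, a log2 difference of -5.98 between the arms at day 7, and in pGF its 17 UMIs lay in 2 cells. Of the 4 genes of this list compared, 3 were lower in pGF at day 7 (median -2.29), and all 4 were higher in SPF at day 7 than at day 2 (median 3.91). Pf4, a platelet chemokine kept on this list, was the member within 2-fold between the arms, at 57.4 and 34.1 CPM.

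Chemokines that attract monocytes and T cells were split. Of 11 compared at day 7, 6 were lower in pGF, among them Ccl3, Ccl4, Ccl5, Cxcl9 and Cxcl10, and 2 were higher, Ccl2 and Ccl7 (list median -1.42). Ccl3 was at 15.3, 36.2 and 2918 CPM in SPF and 69.5, 211 and 167 CPM in pGF. Ccl4, a related chemokine, was at 127, 308 and 14719 CPM in SPF and 641, 2827 and 1237 CPM in pGF. Both were highest in SPF at day 7, where T cells held Ccl4 at 961 CPM. Ccl5, a chemokine that T cells also make, was at 967 CPM in SPF at day 7, against 18142 CPM in its T cells, and the part of T cell RNA in that value was not tested. Cxcl9, an interferon-gamma target that attracts T cells through CXCR3, was at 0, 33.6 and 404 CPM in SPF and 85.0, 74.9 and 0 CPM in pGF, at least 35.5-fold lower in pGF at day 7. Ccl2, the main ligand of the monocyte receptor CCR2, ran the other way, at 146 CPM in SPF and 429 CPM in pGF at day 7, as did Ccl7, at 32.1 and 98.6 CPM (1.37), where the UMIs of pGF lay in 3 cells.

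Arginine, nitric oxide and itaconate genes included several detected almost only in SPF at day 7. Nos2, the inducible nitric oxide synthase, had 2779 UMIs in 201 cells of SPF at day 7 (611 CPM) and 0 UMIs in each of the other 5 libraries. Its level in pGF at day 7 was at least 53.7-fold lower when counted at 3 UMIs, and the exact interval of the ratio reached 0.0229. Arg1, which uses the same arginine to make urea and ornithine, was at 189 CPM in SPF at day 7, in 80 cells, with 2 UMIs in pGF at day 7 and 0 elsewhere. Slc7a2, an arginine transporter, was at 124 CPM in SPF at day 7 and at 0 in the other libraries. Acod1, which makes itaconate, was at 3.84, 7.77 and 552 CPM in SPF and 92.7, 47.7 and 60.7 CPM in pGF. Of 8 genes compared, 6 were lower in pGF than in SPF at day 7 (median -2.67) and 7 were higher in SPF at day 7 than at day 2 (median 3.77, or 3.90 with genes at 0 set to their bounds).

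Receptors and iron genes were mixed. Among 10 pattern recognition receptors compared at day 7, 5 were lower in pGF, none was higher and the median was -0.93. Cd14, which passes bacterial lipopolysaccharide to its receptor, was at 1788, 743 and 5903 CPM in SPF and 626, 661 and 2049 CPM in pGF. The formyl peptide receptor Fpr1, which senses bacterial peptides, had UMIs in 237 cells of SPF at day 7 and in none of pGF at day 7, at least 14.4-fold lower. Its relative Fpr2 had UMIs in 394 cells and in 1. Tlr2, a sensor of bacterial lipoproteins, was at 297 CPM in SPF and 406 CPM in pGF at day 7, within 2-fold. Fth1, the heavy chain of the iron store ferritin, was at 8077, 5588 and 38082 CPM in SPF and 3801, 5634 and 4875 CPM in pGF, and Hmox1, which breaks down haem, was at 38.4, 51.8 and 430 CPM in SPF and 15.5, 143 and 41.7 CPM in pGF. Of 8 iron and haem genes, 4 were lower in pGF at day 7 (median -1.88) and 6 higher in SPF at day 7 than at day 2 (median 2.09). Haemoglobin RNA was itself highest in SPF at day 7, and its part in these values was not tested.

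Matrix and repair genes came from 2 lists. Of 13 tissue repair genes, 5 were lower and 1 higher in pGF at day 7 (median -0.35), and of 8 matrix proteases and inhibitors 5 were lower and none higher (median -1.08). Thbs1, a matrix protein that activates the growth factor TGF-beta, was at 1861, 4359 and 7497 CPM in SPF and 719, 327 and 2432 CPM in pGF. It was lower in pGF than in SPF at each of the 3 days. Timp1, an inhibitor of matrix proteases, was at 26.9, 0 and 526 CPM in SPF and 0, 6.81 and 75.9 CPM in pGF. Spp1, the matrix cytokine osteopontin, was at 202 CPM in SPF and 11.4 CPM in pGF at day 7, while Vegfa, which drives vessel growth, was at 156 and 121 CPM. Areg and Hbegf, ligands of the epidermal growth factor receptor, had their highest levels in pGF at day 2, at 1288 and 1001 CPM, in the library whose 2 largest barcodes carried epithelial markers; Hbegf lay in 2 of its 15 cells.

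Signal-feedback, interferon and metabolic lists were also compared. Over all genes compared, 10.5% were lower and 11% higher in pGF than in SPF at day 7. In SPF at day 7 against day 2, 9.37% of all genes were higher and 22.6% lower. Small list counts near those shares do not set a list apart from other genes. Of 14 genes that feed back on NF-kB signalling, 3 were lower in pGF at day 7 (Ptgs2, Socs3 and Sod2) and none higher, with a median of -0.55. Of 12 interferon-response genes, 2 were lower and none higher (-0.11), and of 6 interferon-inducible GTPases 3 were lower (-1.20). Glycolysis and hypoxia genes had 7 of 18 lower and none higher (-0.75). Pfkfb3, a driver of glycolytic flux, was at 234 CPM in SPF and 15.2 CPM in pGF at day 7. In SPF at day 7 against day 2 the same 4 lists had 5 of 14, 6 of 13, 4 of 6 and 6 of 18 members higher and none lower, with medians of 0.81, 0.38, 1.49 and 0.72. In the complement and coagulation list 3 of 7 were lower in pGF at day 7 (-0.43), among them F10, which encodes coagulation factor X. In the prostaglandin and leukotriene list 3 of 4 were lower (-1.52), and in the lipid and lysosome list 3 of 11 were lower and 1 higher (-0.05).

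MHC class II presentation genes ran opposite to the inflammatory lists. Of 9 compared, 6 were higher in pGF than in SPF at day 7 and none lower (median 1.56, or 1.02 with TMM), and of 10 compared in SPF, 7 were lower and 1, the costimulatory receptor Cd40, higher at day 7 than at day 2 (median -2.14, or -1.43 with TMM). H2-Aa, an antigen-presenting chain, was at 8476, 2977 and 681 CPM in SPF and 11264, 3427 and 2325 CPM in pGF. Cd74, its chaperone, was at 24598, 8371 and 2169 CPM in SPF and 30873, 6928 and 6275 CPM in pGF. Both genes were lower at each later day in each arm. In thinned cells H2-Aa had a UMI in 81.5%, 46.4% and 15.7% of SPF cells and in 100%, 78.6% and 50.0% of pGF cells, against 1.36% to 4.70% of T cells. A smaller share of cells thus held the gene at later days, with 27 SPF and 13 pGF cells behind the day 0 values.

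Ly6c2 and Plac8, monocyte genes that the rule itself uses, are given as a description. Ly6c2 was at 606, 637 and 693 CPM in SPF and 15.5, 198 and 1127 CPM in pGF. After thinning to 1000 UMIs it was found in 34.4% of SPF and 39.7% of pGF cells at day 7, and without thinning in 70.0% and 57.8%. Plac8 was at 1132, 2733 and 2634 CPM in SPF and 487, 974 and 2394 CPM in pGF. Ccr2, the receptor that brings monocytes out of the bone marrow, was at 430, 813 and 185 CPM in SPF and 494, 279 and 725 CPM in pGF, a log2 difference of 1.91 at day 7. The thinned share of cells with Ccr2 was 17.2% in SPF and 48.3% in pGF at day 7, against at most 1.81% in T cells of any library. Of 12 classical monocyte genes compared at day 7, 4 were lower in pGF (Chil3, Hp, Vcan and Clec4e), 1 was higher (Ccr2) and 7 were within 2-fold, with a median of -0.24. Nonclassical monocyte genes were lower in SPF at day 7 than at day 2 in 7 of 8 (median -1.82, or -1.11 with TMM), and 3 of 4 were higher in pGF than in SPF at day 7 (median 1.38, or 0.86 with TMM). Nr4a1, a nuclear receptor needed by nonclassical monocytes and also an immediate-early gene, was at 660, 1110 and 350 CPM in SPF and 734, 920 and 1070 CPM in pGF.

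Genes furthest higher in pGF at day 7 were low in number of UMIs and some rested on single cells. Retnla, a resistin-like protein of alternatively activated macrophages, had 165 UMIs in pGF at day 7, all in 1 cell, and 0 in SPF at day 7, so its log2 difference of 5.99 is that of 1 cell. At day 0 it was at 6070 CPM in SPF, in 10 of 29 cells, and at 1429 CPM in pGF, in 2 of 14. Cd209a, a lectin of monocyte-derived dendritic cells, differed by 4.27, with 71.9% of its 64 UMIs in pGF in 1 cell. Klf4, a transcription factor of monocytes, was better spread: it was at 296 CPM in pGF, in 25 of 64 cells, and 30.6 CPM in SPF, in 92 of 619 cells (log2 2.91). Cx3cr1, the fractalkine receptor of resident and patrolling cells, was at 156 CPM in pGF, in 18 cells, and 12.8 CPM in SPF (2.86). The transcription factor genes Batf3 and Cbfa2t3 both differed by 2.78, in 15 and 17 pGF cells. The others were Lyz1 (3.50), a near-identical paralog of Lyz2, so that its counts are uncertain, Il22ra2 (3.33), which encodes a soluble blocker of interleukin-22, Lpl (2.87), a lipase, and Ppfia4 (2.73). The Il22ra2 difference was 0.37 among cells with at least 2000 UMIs.

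The remaining genes furthest lower in pGF at day 7 were Inhba (-4.32), a subunit of activin A, and Cd38 (-4.31), an enzyme that consumes NAD. Inhba had UMIs in 299 cells of SPF and 5 of pGF, and Cd38 in 395 and 1. With 1 UMI in pGF at day 7, Csf3 was at a ratio of 0.00590 (0.000149 to 0.0329) and Fpr2 at a ratio of 0.0142 (0.000359 to 0.0793) of the SPF level, the brackets covering counting error.

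In SPF, the 10 genes furthest higher at day 7 than at day 2 were Saa3 (10.82), Slpi (6.19), Csf3 (6.03), Ccl3 (5.98), Nos2 (5.96), Cxcl3 (5.83), Timp1 (5.74), Ccl4 (5.53), Il1a (4.76) and the chemokine Cxcl1 (4.32). With the day 2 count at 3 UMIs, Csf3 was at least 82.8-fold, Nos2 at least 78.7-fold and Timp1 at least 67.7-fold higher at day 7. Furthest lower at day 7 were Retnla (-6.38), Klf4 (-4.14), Cd209a (-3.70) and Mgl2 (-3.63), a lectin of dendritic cells and macrophages. Retnla was in 8 of 85 cells at day 2 and in none of 619 at day 7, and was at least 1243-fold lower. However, 1 cell held 61.5% of its 317 UMIs at day 2. Then came Ckb (-3.22), a creatine kinase, Lpl (-3.20), Wnt11 (-3.14), Cbfa2t3 (-3.14), Nr4a2 (-3.03) and Ahr (-2.98), the receptor of plant- and flora-derived ligands. Ahr was at 243 CPM at day 2 and 22.0 CPM at day 7, and Klf4 at 707 and 30.6 CPM. In the same comparison all 4 epithelial markers that could be compared were lower at day 7, and 61.1% of SPF day 2 barcodes were over the mitochondrial limit; the part of either in these genes was not tested.

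Immediate-early and heat-shock genes, which are also induced while tissue is digested, moved with these comparisons. Of 14 compared, 9 were higher and 1 lower in pGF than in SPF at day 7 (median 1.17, or 0.61 with TMM). In SPF 9 of 16 were lower and 1 higher at day 7 than at day 2 (median -1.27, or -0.55 with TMM). Fosb, an AP-1 subunit, was at 595, 748 and 50.6 CPM in SPF and 409, 858 and 326 CPM in pGF. The exception was Ier3, an early gene that NF-kB also induces, at 2168 CPM in SPF and 550 CPM in pGF at day 7. Klf4, Nr4a1 and Nr4a2 can respond in the same way, and the part of digestion in their values was not tested.

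Set against C1q-positive cells of the same library, C1q-negative cells differed in the fewest genes in SPF at day 7, the library with the most cells. There 67 of 2685 genes were higher (2.5%) and 141 lower (5.25%), against 330 (9.33%) and 381 (10.8%) of 3538 in SPF at day 2, and 263 (9.54%) and 325 (11.8%) of 2756 in pGF at day 7. Since the C1q genes divide the cells, these values are a description. In all 3 libraries 22 of 2033 genes were higher (1.08%) and 66 lower (3.25%). The 22 included Ifitm6, at 370, 283 and 615 CPM in C1q-negative and 15.9, 69.3 and 25.2 CPM in C1q-positive cells of SPF day 2, SPF day 7 and pGF day 7. They also included Vcan, a matrix proteoglycan, Chil3, Slpi, Thbs1, F10, Trem1, an amplifier of inflammation, Alox5ap, which serves leukotriene synthesis, and the calcium-binding genes S100a4, S100a6 and S100a10. Among the 66 were the macrophage genes Ms4a7, Cd81, Cd63, Mrc1, Apoe, Maf, Stab1, Axl and Selenop, the MHC class II genes H2-Aa, H2-Ab1, H2-Eb1 and Cd74, and the chemokine Cxcl16. These examples were chosen after their values were seen. Apoe, a lipid carrier, was at 1170, 2024 and 1624 CPM in C1q-negative and 13715, 9623 and 15372 CPM in C1q-positive cells.

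Some inflammatory genes of SPF at day 7 were within 2-fold of its C1q-positive cells, and others were past 2-fold higher in C1q-negative cells. Of 9 acute-phase and alarmin genes compared, 4 were higher (Slpi, Lcn2, S100a8 and S100a9) and none lower (median log2 0.96). Slpi was at 11855 and 3168 CPM (log2 1.90). Of 11 cytokine genes, 2 were higher (Il6 and Il23a) and none lower (median 0.75). Over all genes compared, 2.5% were higher and 5.25% lower. Saa3 was at 18048 CPM in C1q-negative and 10471 CPM in C1q-positive cells (log2 0.78), Nos2 at 611 and 558 CPM (0.13) and Il1b at 15513 and 9247 CPM (0.75). Cxcl2 (1.14), Cxcl3 (1.22) and Ccl4 (1.24) were just past 2-fold higher in C1q-negative cells, and Arg1 was at 189 against 375 CPM (-0.95), within 2-fold. In SPF at day 2 Ccl3, Ccl4 and Il10 were higher in C1q-positive cells, by log2 differences of -4.81, -3.50 and -4.22. C1q-positive cells of pGF at day 7 held no Saa3 or Nos2 UMI.

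**Figure D3:**
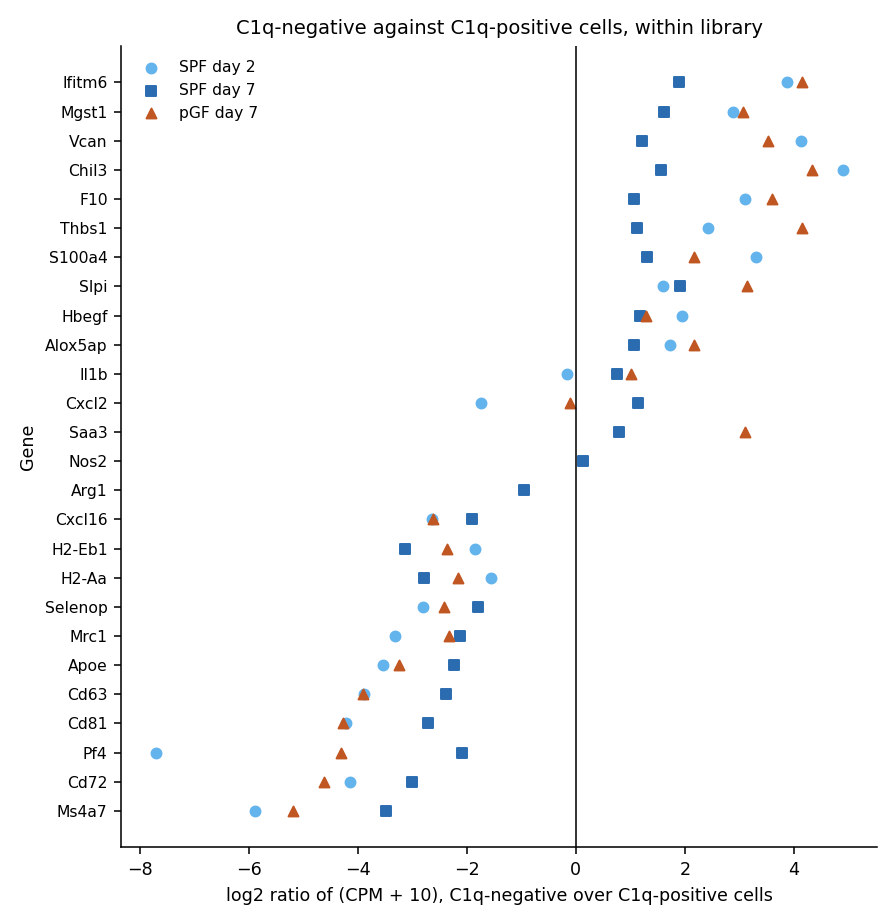
Log2 ratio of (CPM + 10) between C1q-negative and C1q-positive cells of the same library, for genes past 2-fold in all 3 libraries and for inflammatory genes beside them; a point is drawn where either kind of cell had at least 50 CPM. Ifitm6 to Alox5ap lie right of 0 and Cxcl16 to Ms4a7 left of 0 in all 3 libraries, and Nos2, drawn in SPF at day 7, lies near 0.

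Cells within SPF at day 7 differed in how much of the inflammatory genes they held. Per cell, Saa3 ranged from 0 to 1575 UMIs with a median of 37 and quartiles of 1 and 203, and Nos2 from 0 to 123 with a median of 0. Il1b was held by more cells, 608 of 619 against 490 for Saa3, with a median of 86 and quartiles of 33 and 163. Across 610 cells thinned to 1000 UMIs and 1094 genes, the genes most like Saa3 by Pearson correlation of log2(UMIs + 1) were the metal-binding gene Mt1 (0.55), Lcn2 (0.52), Chil3 (0.48), Slpi (0.42), Csf3 (0.39), Fth1 (0.39), Mt2 (0.37), Nos2 (0.36), Thbs1 (0.35) and Cxcl3 (0.34). Least like it were Psap, a lysosomal protein, and Lyz2 (both -0.34). The rest of the 10 lowest were Crip1 and Ifi27l2a (both -0.31), Cd74 (-0.29), and H2-Aa, H2-Ab1, Tmsb4x, Gpx1 and Actb (each -0.27). Every thinned cell holds 1000 UMIs, so more Saa3 UMIs leave fewer for other genes. The part of this in the low values was not tested. The cells share a library, its depth and its free RNA, so these values describe that library.

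**Figure D4:**
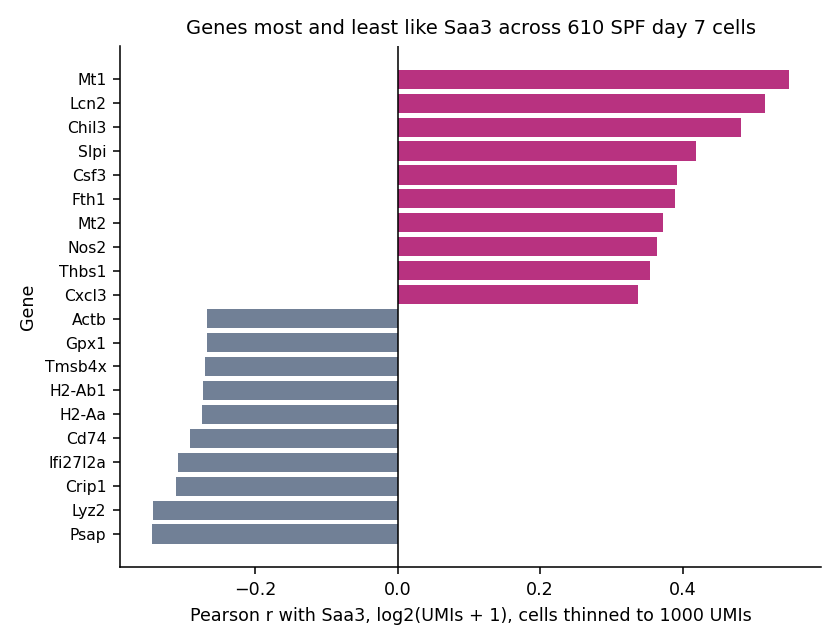
Pearson correlation with Saa3 of the 10 genes most and the 10 least like it, over 610 SPF day 7 cells thinned to 1000 UMIs. Mt1, Lcn2 and Chil3 have the highest values (0.55, 0.52 and 0.48), and Psap and Lyz2 the lowest (-0.34).

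Thinned cells with a Saa3 UMI (415) and without one (195) are set side by side. Nos2 was found in 24.8% (20.7 to 29.3) of the first and 3.59% (1.46 to 7.26) of the second, Chil3 in 86.0% and 46.7%, and Thbs1 in 86.0% and 67.7%. H2-Aa was found in 9.88% (7.18 to 13.2) and 28.2% (22.0 to 35.1). The monocyte gene Ly6c2 was found in 33.0% (28.5 to 37.8) and 37.4% (30.6 to 44.6), with overlapping intervals, and Arg1 in 4.58% and 6.15%. S100a8, which T cells of this library also held, was found in 50.4% and 16.4%. For Ly6c2, with a UMI in 34.4% of these thinned cells, the highest correlation with any gene was 0.28. Sparse counts keep such values low, so no conclusion is drawn from it.

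The amount of Lyz2, which the rule uses, varied among these cells, and the values by its amount are a description. The 253 cells with 5 to 19 Lyz2 UMIs had Saa3 at 26180 CPM, Nos2 at 1134 CPM and Ly6c2 at 353 CPM, at a median of 6251 UMIs. The 366 cells with 20 or more had 13752, 335 and 872 CPM at a median of 7709.5 UMIs.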

How the data were processed

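The deposited values are raw UMI counts of 32285 genes in each barcode, which the authors made with Cell Ranger 6.1.2, per the file headers; the submitters' processing notes also name mm10, R 4.1.3 and Seurat 4.1.1. Libraries came from a 5′ kit with V(D)J data, which were not analysed here. Barcodes were selected by the stated rule, and UMIs were summed per library and scaled to CPM. Folds used log2(CPM + 10) and libraries with at least 30 cells. SPF day 0 had 29, so the planned comparison of SPF day 7 with day 0 was not made and day 7 was compared with day 2, a planned comparison. Depth sets a floor of 3 UMIs, which is 0.660 CPM in SPF day 7 and up to 23.2 CPM in pGF day 0. Genes named per comparison were the 10 with the greatest difference each way that reached 50 CPM and 20 UMIs where higher, at a level no lower than in that library's other passing barcodes; rule, antigen receptor, mitochondrial, ribosomal, haemoglobin, Y-linked and unnamed genes, Xist and Tsix were left out, and members of the 24 gene lists and 11 lists of other cells' markers could also be named. The cells and lists were chosen with earlier results of these data known. Doublets were kept in the main values. Folds were checked on simulated counts. Alternatives covered filters, rule limits, doublet scores (scanpy 1.11.5), depth, denominators, pseudocount, scaling (edgeR 4.0.16 TMM), cell weights and thinning. Python 3.11.15, numpy 2.4.6, scipy 1.17.1, pandas 2.3.3, matplotlib 3.10.9 and R 4.3.3 were used. One gene that met the criteria is not reported here.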

Additional observations from a re-analysis of the deposited data

Results flagged for a closer look

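The share of C1q-negative cells among passing barcodes went in opposite directions in the arms at day 2. On the log2 scale, day 2 minus day 0 was 1.21 in SPF (2.84% against 1.23%) and -2.45 in pGF (0.200% against 1.09%). The counting intervals were 0.58 to 1.87 and -3.60 to -1.29. Day 7 minus day 0 was 2.24 in SPF (1.71 to 2.83) and -0.16 in pGF, where the interval (-1.01 to 0.79) spans 0. Each arm had 1 library per day, so the difference between the arms was not tested. The lower pGF share at day 2 was not particular to C1q-negative cells. C1q-positive cells were 110 of 1280 passing barcodes in pGF at day 0 and 51 of 7488 at day 2, while T cells were 221 and 4757. In SPF, C1q-positive cells were 206 of 2359 and 131 of 2997, and T cells 330 and 553. Relative to C1q-positive cells, the share of C1q-negative cells was higher at day 2 than at day 0 in both arms, with overlapping intervals in pGF.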

How the results depend on the processing

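No paired analysis was possible because the groups share no replicate numbers: each is 1 library, so no replicate could be left out either. Of the share ratios and counts of genes under alternatives, 80 kept their value within the limits set and 13 did not. The log2 share ratio of pGF to SPF, day 2, was -4.92 over barcodes with a Ptprc UMI. The log2 share ratio of pGF to SPF, day 7, was -3.16 without barcodes at or above 1% S100a8 and S100a9 UMIs. Counts of genes higher and lower in pGF than in SPF at day 7 (263 and 250) were 105 and 155 with a pseudocount of 50, 90 and 542 with TMM, and 829 and 400 with no limit on low values. Counts higher and lower in SPF at day 7 than at day 2 (306 and 739) were 188 and 263 with a pseudocount of 50, 812 and 187 with TMM, and 1534 lower with no limit on low values. The prostaglandin and leukotriene median between pGF and SPF at day 7 was 0.15 with no limit on low values and -1.52 with it, with more genes counted. Of other list medians 596 kept their value and 77 moved; of values of named genes 518 kept it, 122 moved and 0 changed sign; of thinned shares 23 kept it and 9 moved. Alternatives chosen after seeing the data admitted up to 2 Retnlg UMIs (781 cells, 7.35%, in SPF at day 7) or removed barcodes with at least 3 epithelial UMIs (9 pGF and 75 SPF cells left at day 2). Doublet scores removed 43 SPF and 7 pGF cells of day 7. Alternatives planned for SPF day 7 against day 0 were not run. Depth limits the day 0 libraries and pGF day 2 most, where 14 to 29 cells carry each value.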
